A study of Mus musculus with 15 samples.

Results

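The NF-kappaB transcription factor subunits and the genes that hold the pathway in check were followed through 5 sorted populations of mouse plasma cells. The set holds 10 genes, taken by symbol from a table of 22339 genes: the 5 subunit genes Nfkb1, Nfkb2, Rel, Rela and Relb, and 5 inhibitors or feedback genes, Nfkbia, Nfkbie, Nfkbiz, Tnfaip3 and Traf3. Between them they have 29 transcripts in the table, and the values of all transcripts of a gene were summed. All 10 genes reached 1 TPM in at least 3 of the 15 libraries, which was the condition for testing.

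RNA was sequenced from plasma cells, which end the B lineage and secrete antibody, of untreated and unimmunized male C57Bl6/N mice aged 8 to 12 weeks. Every population was CD138-high, Ly6g- and CD11c- by cell sorting. In spleen the cells were divided further by B220, the CD45 form carried by B cells, and by 2NBDG, a fluorescent glucose analogue that marks glucose uptake. This gave 4 spleen groups, B220+2NBDG- with B220+2NBDG+ cells on one side and B220-2NBDG- with B220-2NBDG+ cells on the other, and 1 group from bone marrow, BMPC (B220- 2NBDG+), each with 3 biological replicates of about 30000 cells sorted in 2 rounds. The labels do not say whether a replicate was 1 mouse or a pool, and p-values measure the spread between these samples. The design asks how a gene differs with 2NBDG uptake, with B220 and between bone marrow and spleen cells of the same surface phenotype.

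NF-kappaB is a family of dimeric transcription factors built from RelA, RelB, c-Rel, p50 (from the Nfkb1 precursor p105) and p52 (from the Nfkb2 precursor p100). In resting cells IkappaB proteins hold the dimers in the cytoplasm. Signals from antigen, cytokine and Toll-like receptors start the canonical pathway, in which the IKK kinases mark IkappaB for destruction, while receptors such as BAFF receptor and CD40 start the non-canonical pathway, in which TRAF3 is removed, the kinase NIK builds up and p100 is processed to p52. Many inhibitors are themselves NF-kappaB targets, so that RNA of Nfkbia and Tnfaip3 is commonly read as a feedback output of the pathway.

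The start regions of several of these genes carry the letters that NF-kappaB dimers are known to bind. RefSeq promoter windows (GRCm38.p6) were found for 7 of the 10 genes, and the 250 bases before each annotated start were searched on both strands for GGGNNTTTCC. At least 1 window of 5 genes (Nfkbia, Nfkb2, Rel, Tnfaip3 and Traf3) held a match. Of the 10 windows of the 7 genes 6 did, against 1.41% of all 32851 windows of the same length. The letters were not in the windows of Rela and Nfkbie, and Nfkb1, Relb and Nfkbiz had no window. A match describes the letters only. The stretches below are shown because they hold the match found in 5 of the 7 genes with a window, with the matched letters in capitals, on the strand that carries the motif.
Nfkbia (chr12:55492657-55492686, plus strand, opposite to the gene): gtcaggcgcgGGGAATTTCCaagccagtca
Rel (chr11:23771041-23771070, plus strand, opposite to the gene): ggggagggggGGGGATTTCCcgctgcttac
Nfkb2, main start (chr19:46304716-46304745, plus strand, the gene's own): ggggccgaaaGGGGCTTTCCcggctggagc
Nfkb2, later start (chr19:46305695-46305724, plus strand, the gene's own): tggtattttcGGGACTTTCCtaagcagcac
Tnfaip3 (chr10:19015403-19015432, plus strand, opposite to the gene): ttgccaacagGGGGATTTCCgatggaaatt
Traf3 (chr12:111166350-111166379, plus strand, the gene's own): ggcggcccgcGGGGATTTCCagcgcgcgag

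Nfkbia, the most abundant of the 10 and the classic feedback gene, is shown with its whole upstream window, chr12:55492648-55492897 on the minus strand, in the direction of the gene. The capitals mark a second motif, GGANTTTCC, 170 bases or more before the start and the first motif, read on the opposite strand as GGAAATTCCC, which ends 20 bases before it. The 9-letter motif was in 1.07% of all windows and in those of 3 of the 7 genes (Nfkb2, Nfkbia and Tnfaip3), where it overlapped the first motif at Nfkbia and at Nfkb2.
Nfkbia upstream window: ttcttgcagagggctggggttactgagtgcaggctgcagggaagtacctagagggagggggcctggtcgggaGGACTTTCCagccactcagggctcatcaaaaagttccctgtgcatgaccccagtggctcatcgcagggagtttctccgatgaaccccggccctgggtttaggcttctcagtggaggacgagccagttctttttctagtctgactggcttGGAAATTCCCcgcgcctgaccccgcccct

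Depth, as recovered from the values, was 17280445 to 24839445 reads per library, of which 4399669 to 9914474 lay outside the immunoglobulin genes. Immunoglobulin genes took 91.1% to 96.6% of the deposited values, so they were removed and the rest rescaled to 1000000 per library, and TPM below means transcripts per 1000000 outside immunoglobulin genes, a scale set per length. Plasma cell genes were high in every library: Irf4 stood at 107 to 332 TPM and Sdc1, which encodes CD138, at 36.1 to 169. B cell RNA was present too, the sum of 15 B cell genes running from 1501 to 3526 TPM, and no gene of any marker list was at 0 in all 3 libraries of a group. Replicate 3 of B220+2NBDG- was the least like its group, at r = 0.946 and 0.939 across genes to replicates 1 and 2, where all other replicate pairs had 0.965 to 0.976. The 4 spleen libraries numbered 3 also held more erythroid gene RNA (2083 to 6750 TPM) than the other 8 spleen libraries (82.1 to 427), and more neutrophil gene RNA (355 to 474 against 13.9 to 118). The differences of Nfkb1, Rel, Nfkbia, Nfkbiz and Tnfaip3 are therefore given with and without these libraries.

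Nfkbia RNA was the most abundant of the set in every group, at group means of 90.9 to 165 TPM, followed by Rela at 30.9 to 38.1. Nfkb1 came next at 9.06 to 20.04 TPM, then Nfkbie at 6.78 to 9.04 and Tnfaip3 at 4.93 to 7.22. The other 5 stayed at low levels, with the highest group mean of Nfkbiz at 5.02, Rel at 3.902, Relb at 3.52, Nfkb2 at 2.88 and Traf3 at 2.50 TPM. The reads behind a gene's value in 1 library ran from 22.0 (Relb) to 1819 (Nfkbia). Nfkb1 and Rel, 2 of the 10 genes, differed among the 5 groups at an adjusted p under 0.05 (limma F test, adjusted over all 11246 genes tested), against 19.1% of all genes tested. In bulk RNA a lower level can come from fewer cells of a type or from less RNA per cell, and these cannot be told apart.

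**Figure D1:**
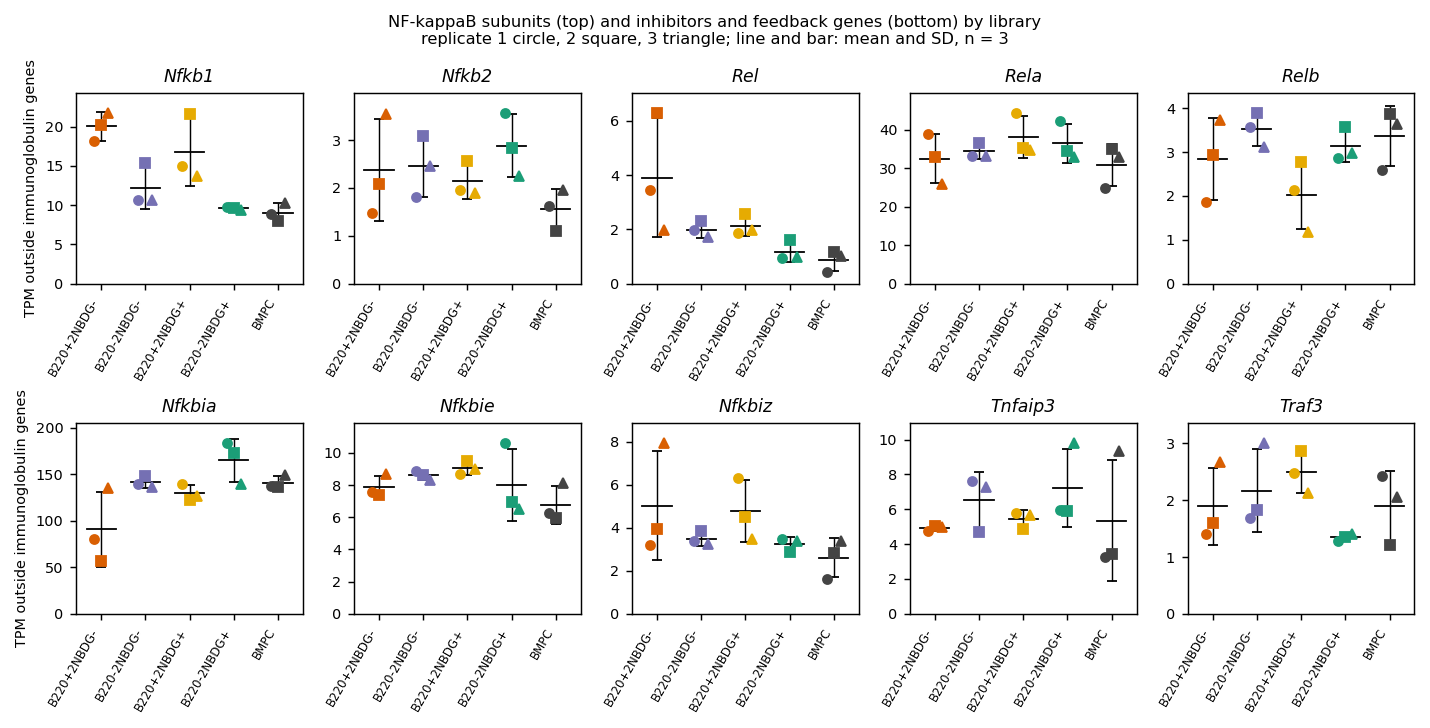
Level of each of the 10 genes in TPM outside immunoglobulin genes (vertical axes, each from 0) in the 15 libraries, by group, with replicate 1 as a circle, 2 as a square and 3 as a triangle, and the group mean and SD (n = 3) as a line and bar. Nfkb1 and Rel are highest in B220+2NBDG- and lowest in BMPC, Rela is nearly level, and 2 of the 3 B220+2NBDG- libraries hold the lowest Nfkbia values.

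Among the subunits, Nfkb1 gave the only call of the set in a comparison between populations. Nfkb1 (ENSMUSG00000028163.17, chr3:135584655-135691547, minus strand) encodes p105, which serves both as the precursor of p50 and as an inhibitor. Its levels were 18.1, 20.2 and 21.7 TPM in B220+2NBDG- (replicates 1, 2 and 3), 14.95, 21.7 and 13.7 in B220+2NBDG+, 10.7, 15.3 and 10.6 in B220-2NBDG-, 9.72, 9.67 and 9.45 in B220-2NBDG+, and 8.83, 8.02 and 10.3 in BMPC. Both B220+ groups lay high and both B220-2NBDG+ and BMPC low, with B220-2NBDG- replicate 2 reaching into the B220+2NBDG+ range. The F test gave Nfkb1 an adjusted p of 0.00438 (limma). In B220- compared with B220+ spleen cells Nfkb1 fell by 0.70 on the log2(TPM + 1) scale (SE 0.13, adjusted p = 0.00553, limma), and it was the 1 of the 10 genes called, where 8.65% of all genes were called and 5.85% were called lower. The difference was -0.69 within 2NBDG- cells and -0.72 within 2NBDG+ cells (SE 0.19 each, not tested singly). Over its alternatives the adjusted p ran from 5.5e-05 to 0.159, and the highest came from counting protein-coding transcripts only, where the value was -0.43 and the F test had an adjusted p of 0.131 (limma). With 2NBDG the difference was -0.28 (SE 0.13, adjusted p = 0.262, limma), and between bone marrow and spleen it was -0.08 (SE 0.19, adjusted p = 0.861, limma). The difference with B220 was as large without B220+2NBDG- replicate 3 (-0.67, adjusted p = 0.00925, limma) and without the 4 spleen libraries numbered 3 (-0.69, adjusted p = 0.0445, limma).

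Which Nfkb1 transcripts carried this RNA bears on that value. By the authors' transcript estimates 62.9% of Nfkb1 TPM lay in Nfkb1-207, a transcript of 1924 nt annotated as subject to nonsense-mediated decay, and 28.1% in Nfkb1-203, a protein-coding one of 2354 nt. Both begin inside the gene, in its part near the 3′ end, while the transcript that spans the whole gene, Nfkb1-201, took 1.97% and was above 0 in 5 of 15 libraries. Nfkb1-207 stood at 12.3 to 13.9 TPM in B220+2NBDG- cells and 8.42 to 14.9 in B220+2NBDG+, against 5.98 to 9.45 in B220-2NBDG-, 4.60 to 6.46 in B220-2NBDG+ and 4.63 to 6.01 in BMPC. Nfkb1-203 differed less, at 4.38 to 5.29 and 3.98 to 5.25 TPM in the B220+ groups against 3.24 to 4.83 and 2.39 to 4.08 in the B220- spleen groups. Only 1.43% of the 31-base words of Nfkb1-207 and 1.2% of those of Nfkb1-203 occur in no other listed transcript of the gene, so their split rests on few reads. The gene's sum does not need that split, but its effective length does. Nfkb1 also shares 3897 bases on its own strand with Gm43430, which is not in the table, and reads of the 2 cannot be told apart there.

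**Figure D2:**
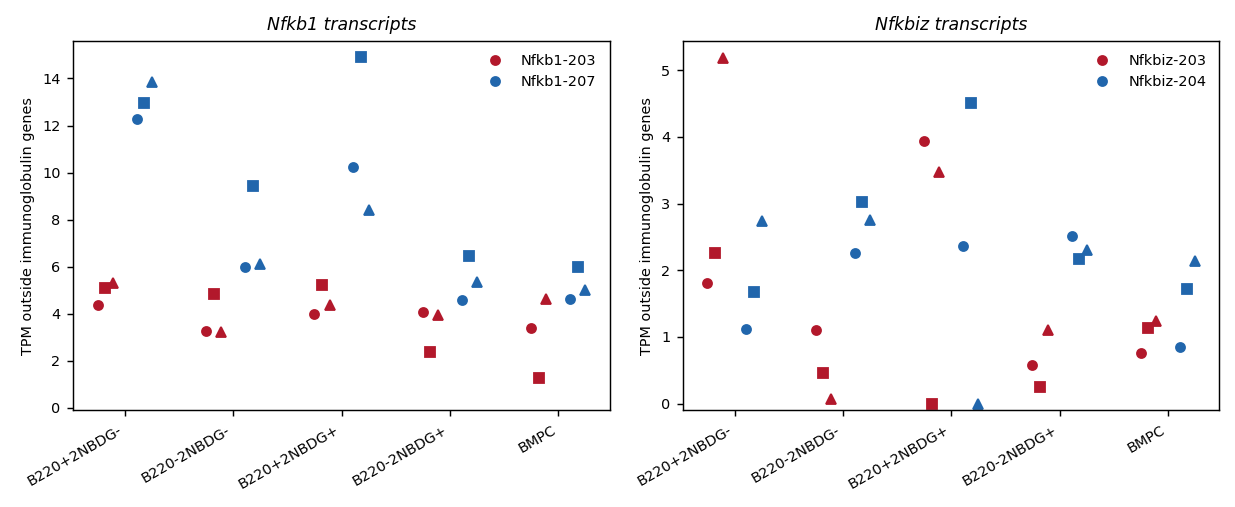
TPM of the leading transcripts of Nfkb1 (left) and Nfkbiz (right) in each library, by group, with replicates 1, 2 and 3 as circle, square and triangle. Nfkb1-207 spans 8.42 to 14.9 TPM in the B220+ groups and 4.60 to 9.45 in the B220- spleen groups. Nfkbiz-203 lies above Nfkbiz-204 in every B220+2NBDG- library and below it in every B220- spleen library, and the order is mixed in B220+2NBDG+.

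Rel followed a like order at a lower level. Rel (ENSMUSG00000020275.9, chr11:23736847-23770970, minus strand) encodes c-Rel, the subunit known for its role in B cell activation and survival, and has 1 transcript in the table. Its levels were 3.44, 6.28 and 1.98 TPM in B220+2NBDG- cells, 1.96, 2.30 and 1.72 in B220-2NBDG-, 1.88, 2.55 and 1.96 in B220+2NBDG+, 0.951, 1.59 and 0.984 in B220-2NBDG+, and 0.429, 1.18 and 1.008 in BMPC. Replicates 1 and 2 of B220+2NBDG- lay above all other libraries, replicate 3 lay among the next 2 groups, and B220-2NBDG+ and BMPC lay below all of the other 3 groups. The highest and lowest group means differed 4.48 times, the widest span of the 10 genes. The F test gave an adjusted p of 0.0254 (limma), which became 0.0624 without B220+2NBDG- replicate 1 and 0.0607 without BMPC replicate 1. The difference with 2NBDG was -0.51 (SE 0.20, adjusted p = 0.156, limma) and with B220 -0.58 (SE 0.20, adjusted p = 0.0905, limma), neither of them called. Without B220+2NBDG- replicate 3 both passed, at -0.67 (adjusted p = 0.0261, limma) and -0.73 (adjusted p = 0.0152, limma). Without all 4 spleen libraries numbered 3 neither did, at -0.65 (adjusted p = 0.140, limma) and -0.69 (adjusted p = 0.105, limma).

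Rela, the main activating subunit of the canonical pathway, was close to level. Rela (ENSMUSG00000024927.8, chr19:5637483-5648130, plus strand, 1 transcript in the table) stood at 38.8, 32.9 and 25.9 TPM in B220+2NBDG- cells, 33.3, 36.6 and 33.3 in B220-2NBDG-, 44.3, 35.2 and 34.9 in B220+2NBDG+, 42.3, 34.4 and 32.9 in B220-2NBDG+, and 24.8, 35.0 and 32.8 in BMPC. The libraries of every group overlapped those of every other group, and the highest and lowest group means differed 1.24 times. The F test did not pass (adjusted p = 0.580, limma). The 95% interval of the difference was -0.12 to 0.43 with 2NBDG, -0.25 to 0.29 with B220 and -0.63 to 0.14 between bone marrow and spleen, on the log2(TPM + 1) scale. On TPM as deposited, where immunoglobulin genes stay in the total, Rela was called lower with 2NBDG (-0.36) and in B220- cells (-0.32), while the median of all genes moved to -0.21 and -0.17.

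Shares of the RNA of all 5 subunits do not change with the scaling of a library, and on average Nfkb1 and Rel had their largest share, and Rela its smallest, in B220+2NBDG-. Rela gave 52.5% ± 7.8 of the 5 genes' summed TPM in B220+2NBDG- cells and 62.5% ± 7.2 in B220+2NBDG+ cells, then 63.3% ± 3.0 in B220-2NBDG- cells, 68.4% ± 2.6 in B220-2NBDG+ cells and 67.3% ± 3.4 in BMPC (SD over 3 libraries). Nfkb1 gave 32.7% ± 5.0, 27.3% ± 5.5, 22.2% ± 2.5, 18.1% ± 1.6 and 20.05% ± 3.4 in the same order of groups (SD, n = 3). Rel gave 6.21% ± 3.2, 3.50% ± 0.55, 3.64% ± 0.25, 2.23% ± 0.75 and 1.85% ± 0.65 (SD, n = 3). No test was made of these shares. In single libraries the ratio of Rela to Nfkb1 was 2.14, 1.62 and 1.19 in B220+2NBDG- and 4.36, 3.56 and 3.48 in B220-2NBDG+, which did not overlap. It was 2.97, 1.62 and 2.55 in B220+2NBDG+, 3.13, 2.39 and 3.13 in B220-2NBDG-, and 2.81, 4.36 and 3.18 in BMPC, so that these neighbouring groups overlapped.

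**Figure D3:**
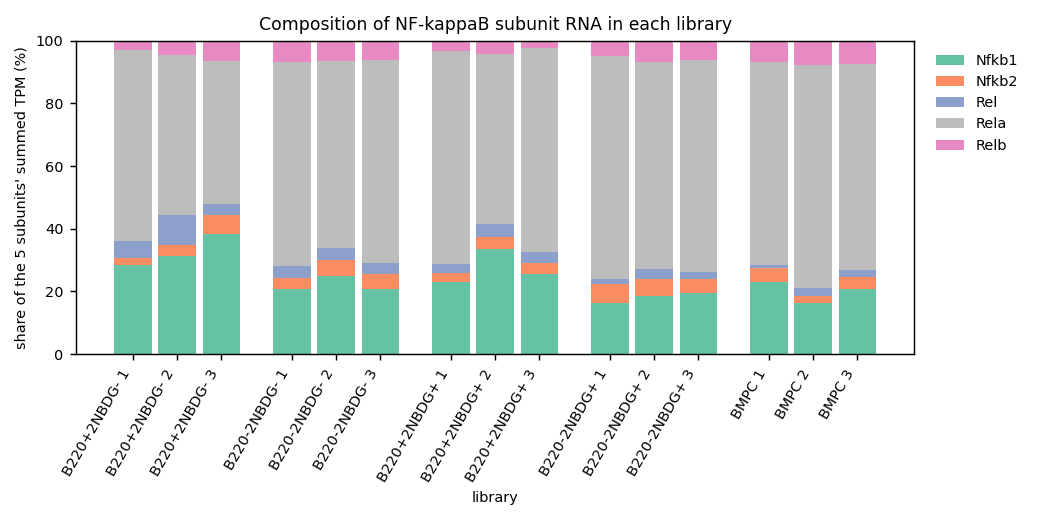
Share of each NF-kappaB subunit gene, all its transcripts counted, in the summed TPM of the 5 (vertical axis, percent) in each of the 15 libraries. Rela holds the largest share in every library, and the Nfkb1 share runs from 28.5% to 38.2% in B220+2NBDG- against 16.4% to 19.4% in B220-2NBDG+.

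The 2 subunits of the non-canonical pathway were the scarcest beside Rel and gave no call. Nfkb2 (ENSMUSG00000025225.15, chr19:46304320-46312385, plus strand) encodes p100, and stood at 1.49, 2.08 and 3.55 TPM in B220+2NBDG- cells, 1.82, 3.09 and 2.46 in B220-2NBDG-, 1.95, 2.56 and 1.90 in B220+2NBDG+, 3.56, 2.83 and 2.26 in B220-2NBDG+, and 1.62, 1.11 and 1.95 in BMPC. All spleen groups overlapped, and BMPC lay wholly below B220-2NBDG+ alone. Between those 2 groups the difference was -0.60 (SE 0.24, unadjusted p = 0.0259, adjusted p = 0.224, limma). Relb (ENSMUSG00000002983.17, chr7:19606217-19629438, minus strand) encodes the partner of p52, and stood at 1.85, 2.93 and 3.72 TPM in B220+2NBDG- cells, 3.56, 3.89 and 3.11 in B220-2NBDG-, 2.14, 2.77 and 1.19 in B220+2NBDG+, 2.88, 3.56 and 2.99 in B220-2NBDG+, and 2.60, 3.86 and 3.64 in BMPC. B220+2NBDG+ lay wholly below both B220- spleen groups and overlapped the other 2. The short transcript Relb-207, of 727 nt and at most 7.58 reads in a library, gave 0.343, 0 and 0 TPM in B220+2NBDG+. It gave 1.18, 1.36 and 1.64 in B220-2NBDG- and 0, 1.22 and 0.796 in B220-2NBDG+, so that this gap rests in part on few reads. The difference with B220 was 0.37, opposite in sign to those of Nfkb1 and Rel, and did not pass (SE 0.16, unadjusted p = 0.0408, adjusted p = 0.188, limma). Nfkb2 shares 299 bases with the gene Psd on the opposite strand, whose reads cannot be told apart from its own if the counting did not use strand.

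Of the inhibitors, Nfkbia had the widest range in TPM, and whether it passed the tests depended on 1 library and on the scaling. Nfkbia (ENSMUSG00000021025.8, chr12:55489410-55492647, minus strand, 1 transcript in the table) encodes IkappaB-alpha, the inhibitor that NF-kappaB induces to end its own response. Its levels were 80.3, 56.8 and 136 TPM in B220+2NBDG- cells, 140, 149 and 136 in B220-2NBDG-, 140, 122 and 127 in B220+2NBDG+, 183, 173 and 139 in B220-2NBDG+, and 138, 136 and 149 in BMPC. Replicates 1 and 2 of B220+2NBDG- lay below the 12 libraries of the other groups, whose lowest value was 122, and replicate 3 lay inside their range. The difference was 0.40 with 2NBDG (SE 0.16, adjusted p = 0.174, limma) and 0.53 with B220 (SE 0.16, adjusted p = 0.0577, limma), and the F test had an adjusted p of 0.0602 (limma). Without B220+2NBDG- replicate 3 all of these passed, at 0.57 (adjusted p = 0.00502, limma), 0.70 (adjusted p = 0.00129, limma) and an F test adjusted p of 0.00102 (limma). They also passed without the 4 spleen libraries numbered 3, at 0.62 (adjusted p = 0.0282, limma) and 0.76 (adjusted p = 0.00855, limma), and with median-of-ratios scaling the B220 difference did, at 0.64 (adjusted p = 0.0306, limma), as did the F test (adjusted p = 0.0230, limma). Beside their lower Nfkbia, replicates 1 and 2 of B220+2NBDG- held 1116 and 640 TPM of 16 T cell genes and 33130 and 32356 of 10 plasma cell genes, against 279 and 47148 in replicate 3, and the part of these in the result was not tested.

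The scale matters for Nfkbia. On TPM as deposited its group means were nearly level, at 7.52 in B220+2NBDG- and 7.54 in B220-2NBDG-, 5.97 and 5.996 in the 2NBDG+ groups of the same order and 6.29 in BMPC, with a difference of -0.27 with 2NBDG (adjusted p = 0.114, limma) and 0.03 with B220 (adjusted p = 0.866, limma). Ratios within a library do not depend on that choice. Nfkbia per summed subunit TPM was 1.26, 0.881 and 2.39 in B220+2NBDG-, 2.14, 1.88 and 2.37 in B220+2NBDG+, 2.73, 2.43 and 2.66 in B220-2NBDG-, 3.08, 3.32 and 2.86 in B220-2NBDG+, and 3.602, 2.78 and 3.00 in BMPC. On that ratio every B220- library, bone marrow included, lay above every B220+ one, though the nearest, 2.43 and 2.39, were close. Its denominator includes Nfkb1, itself called lower in B220- spleen cells. Nfkbia per Rela TPM did not separate the libraries in this way. On it B220+2NBDG- replicate 3 stood at 5.239, above every B220- library but BMPC replicate 1 at 5.562. The other B220+ libraries, at 1.727 to 3.642, lay below every B220- one. No test was made of either ratio.

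**Figure D4:**
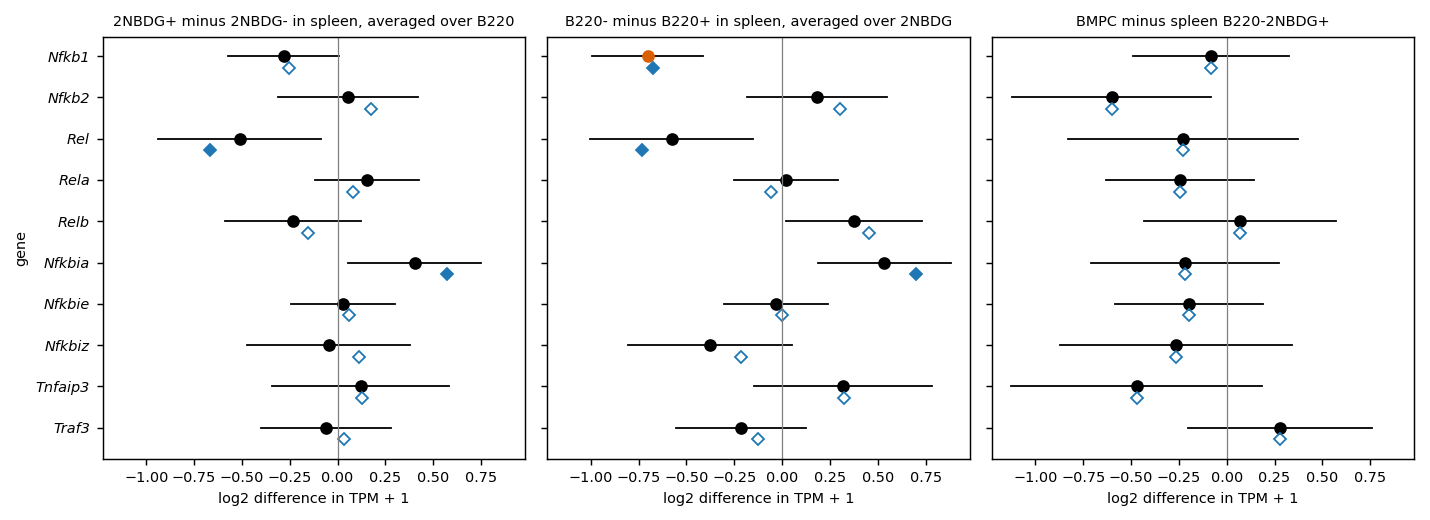
Log2 difference in TPM + 1 for each gene (circle) with its 95% interval (line) with 2NBDG, with B220 and between bone marrow and spleen, orange where the adjusted p was under 0.05, and the same difference without B220+2NBDG- replicate 3 (diamond, filled where called). Nfkb1 with B220 (-0.70) is the 1 orange point, and the filled diamonds add Rel and Nfkbia in the first 2 panels.

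The other IkappaB genes of the set gave no call. Nfkbie (ENSMUSG00000023947.8, chr17:45555703-45563169, plus strand) encodes IkappaB-epsilon, a second cytoplasmic inhibitor, and stood at 7.60, 7.41 and 8.66 TPM in B220+2NBDG- cells, 8.86, 8.59 and 8.33 in B220-2NBDG-, 8.65, 9.47 and 8.98 in B220+2NBDG+, 10.6, 6.97 and 6.51 in B220-2NBDG+, and 6.28, 5.93 and 8.13 in BMPC. BMPC lay below both B220-2NBDG- and B220+2NBDG+ and overlapped the other 2 groups, and the F test had an adjusted p of 0.453 (limma). The 95% interval of its difference was -0.24 to 0.30 with 2NBDG and -0.31 to 0.24 with B220. Nfkbiz (ENSMUSG00000035356.17, chr16:55811375-55838899, minus strand) encodes IkappaB-zeta, a nuclear cofactor that p50 dimers use to switch on secondary targets. Its levels were 3.21, 3.93 and 7.92 TPM in B220+2NBDG- cells, 3.36, 3.87 and 3.26 in B220-2NBDG-, 6.31, 4.51 and 3.48 in B220+2NBDG+, 3.49, 2.86 and 3.40 in B220-2NBDG+, and 1.61, 2.85 and 3.38 in BMPC. The 3 B220- groups stayed under 4 TPM and the B220+ groups spread from 3.21 to 7.92. The difference with B220 was -0.38 (SE 0.20, 95% interval -0.81 to 0.05, adjusted p = 0.269, limma). It was -0.22 (adjusted p = 0.433, limma) without B220+2NBDG- replicate 3, the highest library, and -0.29 (adjusted p = 0.435, limma) without the 4 spleen libraries numbered 3.

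The transcripts of Nfkbiz showed more than its sum. Nfkbiz-203, of 3767 nt, starts at the outer end of the gene, and Nfkbiz-204, of 3627 nt, starts further in, and together they held nearly all of its TPM. Nfkbiz-203 stood at 1.80, 2.25 and 5.18 TPM in B220+2NBDG- against 1.10, 0.453 and 0.0669 in B220-2NBDG-, and at 3.94, 0 and 3.48 in B220+2NBDG+ against 0.580, 0.250 and 1.10 in B220-2NBDG+. In BMPC it stood at 0.762, 1.14 and 1.24. Within 2NBDG- cells the B220+ libraries lay wholly above the B220- ones, and within 2NBDG+ cells they did so but for replicate 2, listed at 0. Nfkbiz-204 took 34.5% to 42.5% of the gene in B220+2NBDG- and 67.2% to 84.6% in B220-2NBDG-, while in B220+2NBDG+ its share was 37.6% in replicate 1, 100% in replicate 2 and 0% in replicate 3. It was 67.7% to 75.5% in B220-2NBDG+ and 52.7% to 63.4% in BMPC. Of the 31-base words of Nfkbiz-203 and Nfkbiz-204, 29 and 22 occur in no other listed transcript, so an estimate of 0% or 100% rests on a handful of reads, and no test was made. The tested levels of the gene are sums that do not need the split, but the effective length behind them does, and these 2 transcripts differ little in length.

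The A20 gene gave no call. Tnfaip3 (ENSMUSG00000019850.11, chr10:19000910-19015657, minus strand) encodes A20, the ubiquitin-editing enzyme that shuts off signalling upstream of IKK. Its levels were 4.74, 5.02 and 5.01 TPM in B220+2NBDG- cells, 7.61, 4.71 and 7.27 in B220-2NBDG-, 5.80, 4.89 and 5.69 in B220+2NBDG+, 5.97, 5.90 and 9.78 in B220-2NBDG+, and 3.24, 3.45 and 9.34 in BMPC. Single libraries of B220-2NBDG+ and BMPC, both replicate 3, gave the highest values. B220-2NBDG+ lay wholly above both B220+ groups and the remaining groups overlapped. The F test had an adjusted p of 0.605 and the difference between bone marrow and spleen was -0.47 (SE 0.30, adjusted p = 0.463, limma). That difference was -0.26 (adjusted p = 0.710, limma) without B220-2NBDG+ replicate 3 and -0.89 (adjusted p = 0.0699, limma) without BMPC replicate 3. The difference with B220 was 0.32 (adjusted p = 0.396, limma), and 0.19 (adjusted p = 0.749, limma) without the 4 spleen libraries numbered 3. In B220-2NBDG+ replicate 3 the transcript Tnfaip3-203, of 490 nt, held 4.06 of the 9.78 TPM, and it had at most 6.61 reads in any library. Of its TPM 78.8% lay in Tnfaip3-202, which starts at position 19011963 of chromosome 10, while the motif shown above lies before the start of Tnfaip3-201 at 19015410, a transcript that took 2.66%.

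Traf3, which encodes the adaptor that keeps the non-canonical pathway off, differed in sign between the B220 strata without passing a test. Traf3 (ENSMUSG00000021277.16, chr12:111166370-111267153, plus strand) stood at 1.41, 1.59 and 2.67 TPM in B220+2NBDG- cells, 1.68, 1.83 and 3.00 in B220-2NBDG-, 2.48, 2.87 and 2.13 in B220+2NBDG+, 1.28, 1.35 and 1.41 in B220-2NBDG+, and 2.42, 1.21 and 2.05 in BMPC. The 3 libraries of B220-2NBDG+ lay close together and below the other 3 spleen groups, with BMPC on both sides, though the highest of them (1.407) was next to the lowest of B220+2NBDG- (1.41). The short transcript Traf3-204, of 645 nt and at most 7.44 reads in a library, gave 0.663, 0.718 and 1.94 TPM in B220-2NBDG- against 0, 0.0616 and 0.506 in B220-2NBDG+. It gave 0, 0.217 and 0 in B220+2NBDG- against 1.05, 0.795 and 1.08 in B220+2NBDG+. The 2NBDG differences of both B220 strata, and their opposite signs, thus rest on few reads. The difference with 2NBDG was 0.29 in B220+ and -0.41 in B220- cells (SE 0.22 each), and the interaction was -0.70 (SE 0.32, unadjusted p = 0.0432, adjusted p = 0.865, limma). Traf3 shares 18122 bases with 4930595D18Rik on the opposite strand, and reads of the 2 cannot be told apart without strand.

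Counted over the set, calls stayed near or under those of all genes. With 2NBDG 0 of the 10 genes were called (limma), where 6.46% of all genes were, and 2 of the 10 (Rel and Nfkbia) had an unadjusted p under 0.05. With B220 4 of 10 had one (Nfkb1, Rel, Relb and Nfkbia). In the interaction 0 of 10 were called (limma), where 0.0267% of all genes were, and 1 (Traf3) had an unadjusted p under 0.05. Between BMPC and spleen B220-2NBDG+ 0 of 10 were called (limma), where 1.92% of all genes were, and 1 (Nfkb2) had one. The median difference of the 10 genes was -0.01 with 2NBDG, -0.01 with B220 and -0.22 between bone marrow and spleen, beside -0.04, -0.09 and -0.18 for all genes tested. Under median-of-ratios scaling the split of all calls moved from 315 higher and 658 lower to 547 and 457 with B220, and from 116 and 100 to 194 and 37 between bone marrow and spleen. The ends of the order can also be read from whole groups. BMPC lay wholly below B220+2NBDG- for 2 of the 10 genes (Nfkb1 and Rel), where 30.3% of all genes did, and wholly above it for 1 (Nfkbia), where 7.24% did. B220-2NBDG+ lay wholly below B220+2NBDG- for 3 (Nfkb1, Rel and Traf3, where 21.2% of all genes did) and wholly above it for 2 (Nfkbia and Tnfaip3, where 10.6% did). B220-2NBDG- lay wholly above B220+2NBDG- for 1 (Nfkbia), where 10.9% did. Both B220- spleen groups lay wholly below their B220+ groups of the same 2NBDG for 1 (Nfkb1), where 5.57% did.

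Nfkb1 and Rel had like patterns and Nfkbia the opposite one. Over the 15 libraries, which share their groups, depth and scaling, the Pearson r of log2(TPM + 1) was 0.78 between Nfkb1 and Rel and 0.68 between Nfkb1 and Nfkbiz. It was -0.80 between Rel and Nfkbia and -0.58 between Nfkb1 and Nfkbia. Rela followed none of the other subunits closely, with r = 0.03 to Nfkb1 and 0.23 to Rel. Among all tested genes the patterns most like that of Nfkb1 were those of Itpa (r = 0.96), Pold4 (0.96) and Rasgrp1 (0.95). Most like Rel were Hnrnpc, Bcl6 and Zbtb11 (0.94 each), and Bcl6 encodes the repressor known from germinal centre B cells. Nfkbia was most like Rabac1 (0.94), Tex264 (0.92) and Ormdl3 (0.92). Rela was most like Rnf14 (0.93), Chmp1a (0.92) and Gpr155 (0.91), and Nfkbiz like Irak1 (0.94), Usp47 (0.93) and Morc2a (0.92). The nearest genes were Anapc2 for Nfkbie (0.90), Josd2 for Nfkb2 (0.86), Ubxn2a for Relb (0.82), Kif16b for Tnfaip3 (0.82) and Raph1 for Traf3 (0.77). These are the highest of 11246 values each, from 15 libraries, and are given as descriptions.

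B cell RNA moved with the same libraries. The 15 B cell genes summed to 2852, 3526 and 2067 TPM in B220+2NBDG- cells, 2738, 2498 and 2082 in B220+2NBDG+, 2012, 2146 and 1713 in B220-2NBDG-, 2033, 1992 and 1666 in B220-2NBDG+, and 1740, 1757 and 1501 in BMPC. In B220- compared with B220+ cells 7 of these 15 were called lower (limma), where 5.85% of all genes were. Over the 15 libraries the summed level had an r of 0.85 with Rel, 0.75 with Nfkb1 and -0.73 with Nfkbia. Leaving out the 3 B220+2NBDG- libraries, r over the other 12 was 0.66, 0.75 and -0.14. The sum of 16 T cell genes ran from 279 to 1116 TPM in B220+2NBDG- and from 100.5 to 349 in the other spleen groups, with r = 0.85 to Rel over the 15 libraries and 0.81 over the 12. Of 13 T cell genes tested 5 were called lower with 2NBDG (limma), where 6.46% of all genes were called in either direction. Without B220+2NBDG- replicate 3 this count was 9. With B220 1 T cell gene was called higher and 1 lower (limma), where 8.65% of all genes were called. The sum of 10 plasma cell genes ran the other way, from 32356 TPM in B220+2NBDG- to 132438 in BMPC. Its r over the 15 libraries was -0.94 to Rel, -0.85 to Nfkb1 and 0.77 to Nfkbia. Over the 12 without B220+2NBDG- these were -0.95, -0.79 and 0.41. That sum was led by Jchain, with group means of 27113 TPM in B220+2NBDG- and 101834 in BMPC. Mzb1, the next, went down, at 8080 and 4360. With 2NBDG and with B220 2 of the 10 were called higher (Tnfrsf17 and Jchain, limma), where 6.46% and 8.65% of all genes were called. Between bone marrow and spleen 1, Eaf2, was called lower (limma), where 1.92% were called. The part of B cell, T cell and plasma cell RNA in these results was not tested.

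**Figure D5:**
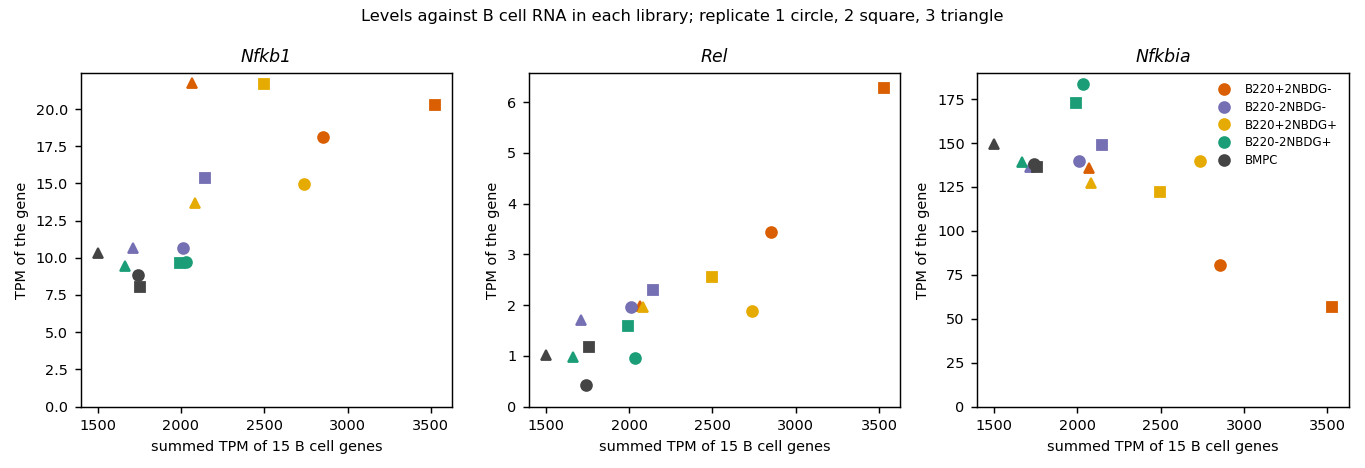
TPM of Nfkb1, Rel and Nfkbia (vertical axes) against the summed TPM of 15 B cell genes (horizontal axis) in the 15 libraries, coloured by group. The 2 B220+2NBDG- libraries with the most B cell RNA (2852 and 3526 TPM) hold the highest Rel and the lowest Nfkbia values, while Nfkb1 is as high in the third of that group at 2067.

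Around the set, 75 other genes of the pathway were listed and 70 of them tested. The lists were drawn up with earlier results of these data known, so their counts are descriptions. With 2NBDG 6 of the 70 (8.57%) were called, 4 higher and 2 lower, where 6.46% of all genes were. With B220 5 (7.14%) were, 2 higher and 3 lower, where 8.65% of all genes were. In the interaction and between bone marrow and spleen 0 of the 70 were called (limma), and 1 and 14 had an unadjusted p under 0.05. Of 10 receptors 3 were called with 2NBDG and 2 with B220, and of 19 target genes 3 and 1. The F test called 12 of the 70 (17.1%, limma), where 19.1% of all genes were called. Among these were 3 of the receptors and 7 of the 19 target genes (36.8%). Cd83, Plek, Rasgef1b and Slfn2 were called in the F test and in none of the 4 comparisons. Of the 4 other IkappaB genes and the 10 kinases 0 were called with 2NBDG (limma, with 0 of either at an unadjusted p under 0.05) and 1 each with B220. The 17 adaptors and ubiquitin ligases and the 10 deubiquitinases and A20 partners had 0 calls in the F test and in each of the 4 comparisons (limma). With B220 2 of the adaptors and 1 of the deubiquitinase group had an unadjusted p under 0.05, and between bone marrow and spleen 3 and 0 did.

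Receptors known for plasma cell survival were among the calls. Tnfrsf17, which encodes BCMA, a receptor for BAFF and APRIL, had group means of 95.2 and 176 TPM in the 2NBDG- and 2NBDG+ cells of the B220+ side, 229 and 335 in those of the B220- side and 314 in BMPC. It rose by 0.72 with 2NBDG (adjusted p = 9.0e-04, limma) and by 1.09 in B220- cells (adjusted p = 9.5e-05, limma), where on TPM as deposited the first was 0.01 and the second 0.54. Tnfrsf13b, which encodes TACI, another such receptor, rose by 0.66 in B220- cells (adjusted p = 0.00580, limma), from 298 and 464 TPM to 589 and 588, and was not called on TPM as deposited (0.16). Tnfrsf1a, the main TNF receptor, had a difference of 1.08 with 2NBDG (adjusted p = 0.0334, limma) and Cd27 one of -1.49 (adjusted p = 0.0374, limma). Leaving out single libraries took these to 0.0833 and 0.0957 at the highest, the first call being lost without any of 9 libraries and the second without any of 8.

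Of the 70 other pathway genes tested 3 were called lower in B220- cells (limma), as Nfkb1 was, where 5.85% of all genes were called lower. Nfkbid, which encodes the nuclear inhibitor IkappaB-NS, stood at 3.18 to 3.88 TPM in B220+2NBDG- cells and 2.72 to 3.35 in B220+2NBDG+, against 1.44 to 1.96 in B220-2NBDG-, 1.48 to 1.87 in B220-2NBDG+ and 1.13 to 1.60 in BMPC. It fell by 0.69 in B220- cells (adjusted p = 0.00194, limma), with no overlap between B220+ and B220- libraries. Both B220- spleen groups lay wholly below their B220+ groups of the same 2NBDG for 5.57% of all genes. Map3k8, which encodes TPL2, a kinase that the p105 product of Nfkb1 binds and holds inactive, fell by 0.67 (adjusted p = 0.00865, limma), though not when protein-coding transcripts alone were counted (adjusted p = 0.315, limma). Fas, a target gene that encodes a death receptor, fell by 0.72 (adjusted p = 0.00305, limma), from 66.9 and 58.1 TPM in the B220+ groups to 38.7 and 37.0 in the B220- ones. Of the targets called with 2NBDG, Irf1 had a difference of 0.39 (adjusted p = 0.0224, limma), Ier3 one of 0.85 (adjusted p = 0.0214, limma) and Ccl3 one of -0.76 (adjusted p = 0.0461, limma). Each of these 3 calls was lost in some fits without 1 library, with an adjusted p of up to 0.0596, 0.0568 and 0.112, and on TPM as deposited Irf1 was called the other way (-0.27).

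Immediate early and heat shock genes, which handling of cells is known to induce, were followed beside the set. The sum of 18 immediate early and heat shock genes ran from 795 to 1218 TPM in the spleen libraries and was 382, 823 and 652 in BMPC. With 2NBDG 0 of the 17 tested were called (limma), where 6.46% of all genes were, with 2 at an unadjusted p under 0.05. With B220 1 (5.88%) was lower, Klf2 (-0.76, adjusted p = 0.0204, limma), where 5.85% of all genes were called lower. Between BMPC and spleen B220-2NBDG+ 2 (11.8%) were lower, where 1.92% of all genes were called in either direction. They were the heat shock genes Dnajb1 (-0.83, adjusted p = 0.0457, limma) and Hsph1 (-1.23, adjusted p = 0.0216, limma). In that comparison 9 of the 17 had an unadjusted p under 0.05. The median difference of the 17 was -0.72 there, beside -0.18 for all genes tested. Neutrophil genes were also higher in BMPC, at 5808 to 9624 TPM against at most 474 in spleen. Their part in the bone marrow differences of the set was not tested.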

How the data were processed

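The authors deposited 1 table of transcript TPM for 15 libraries. Per the submitters' processing notes it was made with Salmon 0.9.1 and GRCm38.p6, and per the labels' protocols from NucleoSpin XS RNA, Clontech Smartseq and Nextera libraries, which amplify cDNA. No source used here says whether counting used strand. The table also gives a length and an effective length per transcript, the second being 249 nt less than the first for 96.4% of transcripts. Gene models came from GENCODE M21, which lists 99.7% of the transcripts, and promoter windows from RefSeq.

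TPM was summed per gene, 262 immunoglobulin genes were removed and the rest rescaled to 1000000 per library, which multiplied values by 11.2 to 29.3. The 11246 genes that reached 1 TPM in 3 or more libraries were tested on log2(TPM + 1) with limma 3.58.1 in R 4.3.3 (1 model of the 5 group means, eBayes with trend, Benjamini-Hochberg over all genes, called under 0.05), and a fold change on this scale understates that of low genes. Differences are 2NBDG+ minus 2NBDG- and B220- minus B220+ in spleen, averaged over the other marker, their interaction, and BMPC minus spleen B220-2NBDG+. Depth was estimated from TPM and effective length, by which 66.5% to 75.2% of low values came within 0.05 of a whole read, too few for a count test. The fit was tested on simulated data.

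The members, gene lists and motifs were chosen with earlier results of these data known. All 10 members are named, and of each pathway list up to 3 genes called in each comparison, by size of change. The 3 genes most correlated with each member were found, of which the first alone is named for 5 members. The lists of monocyte and dendritic cell markers gave 405 to 3394 and 436 to 678 TPM in sum over the libraries. Same-numbered libraries of different groups had deviations from their group means correlated from -0.19 to 0.41 (median 0.12), over 0.1 in 16 of 30 pairs. For libraries of different numbers r was -0.34 to 0.17 (median -0.04). Numbers were not taken as pairs in the main fit, and a fit with the number as a block is given at the end.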

Additional observations from a re-analysis of the deposited data

How the results depend on the processing

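Of 940 differences of the 10 genes under the alternatives, 831 kept their direction and side of the threshold, 82 changed sign and 27 changed side of the threshold alone. Of these 27, 18 arose on TPM as deposited and 1 with the replicate block, and 8 are given with the results. Of the 82, 10 were called and 72 were called under neither setting. The 10 arose on TPM as deposited, with a pseudocount of 1 and of 0.05 (the second chosen after seeing the data). They were the 2NBDG differences of Nfkb2 (-0.076 and -0.45), Rela (-0.36 and -0.53), Nfkbie (-0.20 and -0.60) and Tnfaip3 (-0.14 and -0.49) and the B220 difference of Rela (-0.32 and -0.47), while the median of all genes was -0.21 and -0.64 with 2NBDG and -0.17 and -0.51 with B220. On the same scales 25 uncalled values changed sign: with 2NBDG Nfkbia (-0.27 and -0.30), with B220 Nfkb2 (-0.035 and -0.18), Relb (-0.015 and -0.011) and Tnfaip3 (-0.031 and -0.11), between bone marrow and spleen Nfkb1 (0.055 and 0.18), Rela (0.025 and 0.042), Nfkbia (0.065 and 0.077) and Nfkbie (0.0095 and 0.057), and in the interaction Nfkb1 (0.31 and 0.29), Rela (0.14 and 0.14), Nfkbie (0.050, with the pseudocount of 1), Nfkbiz (0.12 and 0.24) and Tnfaip3 (0.076 and 0.25).

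The other 47 uncalled values that changed sign lay between -0.33 and 0.17. Median-of-ratios scaling turned Nfkbie with B220 (0.061), Nfkb1 (0.13), Nfkbia (0.016) and Nfkbie (0.0082) between bone marrow and spleen, and Nfkb1 (0.060), Nfkbiz (0.011) and Tnfaip3 (0.081) in the interaction. Leaving out the 4 spleen libraries numbered 3 turned Nfkbiz (0.17) and Traf3 (0.15) with 2NBDG, Rela (-0.040) and Nfkbie (0.064) with B220 and Relb (-0.20) in the interaction. Protein-coding transcripts alone turned Relb between bone marrow and spleen (-0.33) and Nfkb1 in the interaction (0.13), and a pseudocount of 0.1 turned Rel in the interaction (-0.035). Leaving out 1 library took values across 0 for Nfkb2 (-0.046 to 0.17), Nfkbie (-0.067 to 0.090), Nfkbiz (-0.16 to 0.11) and Traf3 (-0.12 to 0.033) with 2NBDG, Rela (-0.056 to 0.085) and Nfkbie (-0.13 to 0.026) with B220, Relb (-0.016 to 0.20) between bone marrow and spleen, and Nfkb1 (-0.15 to 0.16), Nfkb2 (-0.0019 to 0.43), Rel (-0.25 to 0.40), Nfkbiz (-0.39 to 0.15) and Tnfaip3 (-0.22 to 0.10) in the interaction.

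Genes called over all genes were 2153 by the F test, 726 with 2NBDG, 973 with B220, 3 in the interaction and 216 between bone marrow and spleen. On TPM as deposited they were 8624, 8286, 6861, 80 and 100, and with the pseudocount of 0.05 they were 8770, 8319 and 6819 in the first 3 and 135 between bone marrow and spleen. Leaving out 1 library gave 1550 to 2797, 458 to 1157, 553 to 1342, 0 to 4 and 60 to 403, in the same order. Without B220+2NBDG- replicate 3 they were 1157 with 2NBDG and 403 between bone marrow and spleen, 2NBDG counts of 458 to 467 came without B220+2NBDG- replicates 1 or 2, B220-2NBDG- 2 or 3, B220+2NBDG+ 3 and B220-2NBDG+ 1 or 3, B220 counts of 553 and 592 without B220-2NBDG- 1 and without B220+2NBDG+ 2, and bone marrow counts of 60 to 134 without any B220-2NBDG+ library or BMPC 1 or 2. Without the 4 spleen libraries numbered 3, also chosen after seeing the data, they were 366 with 2NBDG, 636 with B220 and 0 in the interaction. The interaction had 26 without a filter, and 0 with a pseudocount of 0.1 or at least 5 TPM.

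The replicate number as a block gave 2390, 987, 1136, 3 and 335, and called Rel with B220 (-0.58, adjusted p = 0.0415, limma). It changed no other call of the 10 genes. On average 13 of 15 libraries correlated best with their own number, a hint from the data and not from the design. The cause of these shifts was not tested. Depth limits Relb, Nfkb2 and Rel most, with as few as 22.0, 25.9 and 29.0 reads in a library.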
